A study of Sorghum bicolor with 4 samples.

Results

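In the middle internode of the sweet sorghum variety SSV84, 158 genes had a trough at the milky stage: their values fell from booting to the milky stage and rose again by physiological maturity. These 158 were chosen from the deposited table of expression values among the 26729 rows that carry 1 gene ID ending in 00, out of 34458 rows in all. The rule asked for a difference in log2(FPKM + 1) of −1 or lower from booting to the milky stage and of 1 or higher from the milky stage to maturity. FPKM is the number of fragments scaled by transcript length and by mapped fragments, and 1 was added to damp the differences of genes with very low values. The rule used all 3 stage values, so every expression value given for these genes is a description, and none is tested.

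Plants of Sorghum bicolor SSV84 were raised in an open field, and total RNA of the middle stem internode was sequenced. Booting had 2 libraries, while the milky stage and physiological maturity had 1 each. All groups share variety, tissue and field growth, and they differ in stage. The labels also number the libraries, 1 and 2 for booting, 2 for the milky stage and 1 for maturity, so stage and any difference that goes with these numbers cannot be told apart. The sources used here do not state plant number, plant age in days, time of day or pooling of plants. The table gives 1 value per stage, made by the authors, so the differences have no SD, no replicate check and no p-value. The table does not state the depth of the libraries. Since the RNA comes from whole internodes, fewer cells of a type and less RNA per cell cannot be told apart.

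Booting is the stage at which the developing panicle is still enclosed in the sheath of the flag leaf. At the milky stage the grain is filling and its content is liquid, and at physiological maturity grain filling has ended. Sweet sorghum is known for storing sucrose in the parenchyma of its stem internodes, where growth and wall deposition give way to storage around and after flowering. The milky stage is therefore a time at which grain and stem both act as sinks for assimilate. The table does not pair its IDs with gene names or functions, so the genes are given by ID, their roles are not described, and the tissue could not be checked against marker genes.

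The trough took the summed FPKM of the 158 genes from 9342 at booting down to 2247 and back to 7115 at maturity. As a share of the summed FPKM of the whole table, that was 1.18%, 0.326% and 1.04%. The median gene stood at 16.9 FPKM at booting, dropped to 3.15 and stood at 12.9 FPKM by maturity. Over all 15323 genes with such an ID that reached 1 FPKM in a stage, the medians hardly moved, at 11.7, 11.8 and 12.5 FPKM in the same order. The lowest and highest of the 158 were 1.89 and 1564 FPKM at booting, and 1.69 and 1157 FPKM at maturity. At the milky stage they ranged from 0 to 402 FPKM, with 31 genes under 1 FPKM. At the milky stage the median gene kept 23.3% of its booting FPKM, and no gene kept more than 49.0%. The rule itself sets a ceiling just above that value, and the drop and return of the sums also follow from it. A level of 100 FPKM was reached by 20 genes at booting, by 4 in the trough and by 14 at maturity.

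Of the 15323 genes, 5.68% (871) fell by the threshold from booting to the milky stage and 5.36% (821) rose by it from the milky stage to maturity. Both steps were met by 1.03%, the 158 genes described here. Of the 871 that fell first, 18.1% then rose, 693 stayed within the threshold in the later step and 20 fell again. Among the 14452 that had not fallen first, 4.59% rose in the later step. The milky value enters both differences with opposite sign, so a single low milky value is enough to place a gene among the 158, and these shares are linked by construction. The opposite course, a rise and then a fall, was taken by 185 genes, or 1.21%.

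**Figure D1:**
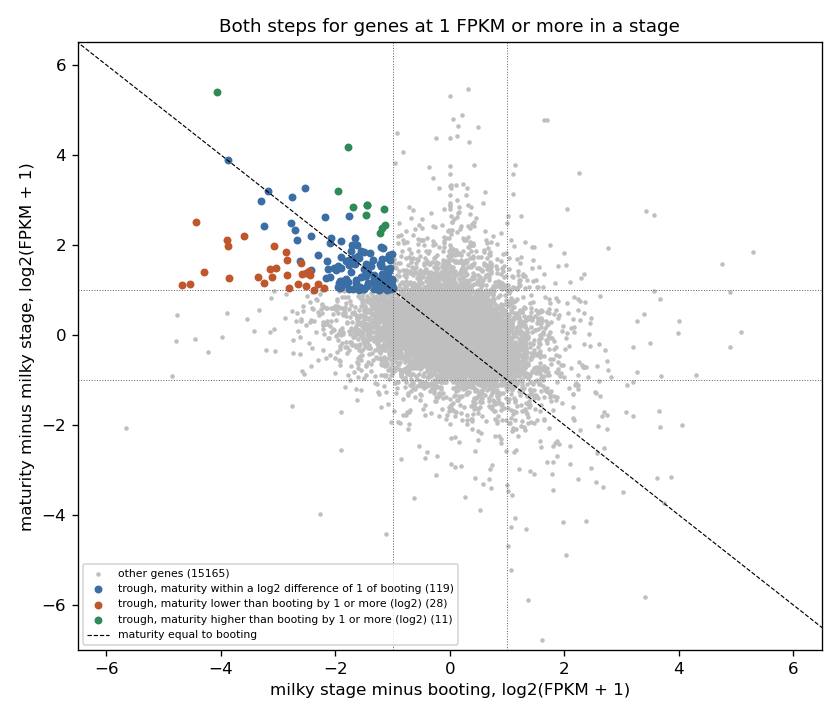
Each point is 1 gene at 1 FPKM or more in a stage, with the difference in log2(FPKM + 1) from booting to the milky stage on the x axis and from the milky stage to maturity on the y axis; dotted lines mark −1 and 1, and the dashed line marks equal values at booting and maturity. The 158 genes with a trough fill the upper left corner, with 119 less than 1 above or below the dashed line, 28 further below it and 11 further above it.

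Most of the 158 genes ended within a log2 difference of 1 of booting, as did most of all 15323 genes. On the log2(FPKM + 1) scale, 119 (75.3%) stood at maturity within 1 of booting, 28 (17.7%) stayed lower by 1 or more, and 11 (6.96%) ended higher by 1 or more. The 119 are called near booting here, but they include genes such as Sobic.001G291500, at 42.8% of its booting FPKM. For comparison, 5.93% of all 15323 genes were lower and 8.06% higher at maturity than at booting by the same measure, but the rule fixes part of that split and nothing is read from it. The median gene reached 93.6% of its booting FPKM at maturity, with a range from 7.16% to 571%. Maturity exceeded booting in 64 genes and was below it in 94, and 32 genes came back to within 1.1-fold of booting in FPKM + 1.

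**Figure D2:**
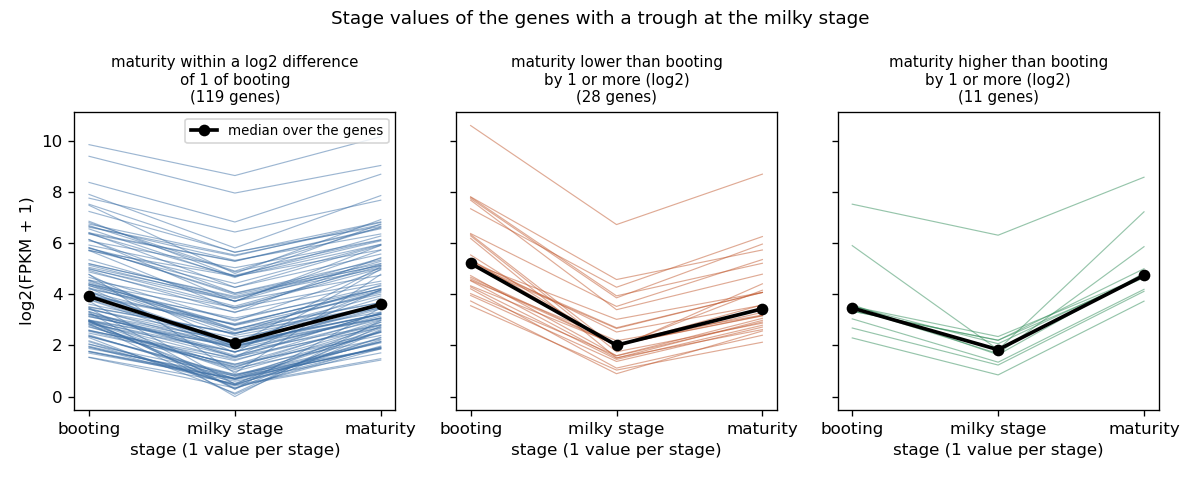
The lines give log2(FPKM + 1) of each of the 158 genes at the 3 stages, with 1 value per stage, and the black line is the median over the genes of a panel. The 119 genes on the left return to within 1 of their booting value. The 28 in the middle start higher at the median and regain part of the loss, and the 11 on the right end above booting by 1 or more.

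Depth of the trough was taken as the smaller of the fall and the rise. It had a median of 1.28 on the log2 scale and a range from 1.0001 to 4.08. A depth of 1.5 or more was seen in 44 genes, of 2 or more in 17 and of 3 or more in 3. Sobic.002G109500 (chromosome 2, 13337492 to 13338174, coordinates here and below as the table prints them, on a build that the sources used here do not name) was the deepest on this scale, with 59.1 FPKM at booting, 2.57 FPKM in the trough and 149 FPKM at maturity. Its fall was −4.08 and its rise 5.40, so that maturity ended well above booting. The order depends on the pseudocount. With 0.1 in place of 1, Sobic.003G171900 (6.13, milky value listed at 0) led and Sobic.002G109500 (4.47) was number 5. With 5, Sobic.002G109500 led again (3.08).

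In a further pair of the 12 deepest genes, booting and maturity values were almost equal. Sobic.003G252300 (chromosome 3, 59081409 to 59083793) went from 26.6 FPKM down to 0.878 and back to 26.6. Its log2 differences were −3.88 and 3.88. Sobic.005G122500 (chromosome 5, 53755480 to 53757821) went from 10.05 through 0.220 to 10.1 FPKM, with differences of −3.18 and 3.19. In both, the milky value stood alone, and the outer stages differed by far less than either step.

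Sobic.003G171900 (chromosome 3, 38333551 to 38365472) was the only one of the 158 listed at 0 at the milky stage, against 8.85 FPKM at booting and 6.89 at maturity. No fold of FPKM is given for it, and its log2 differences rest on the pseudocount. It shares its locus with 9 other rows of the table, and there 0 may stand for no transcript or for an estimate that failed, which cannot be told apart. Of those rows, Sobic.003G172701 was also listed at 0 at the milky stage, with 0.583 FPKM at booting and 0.143 at maturity. So was Sobic.003G172000, with 0 FPKM at booting as well and 0.242 at maturity. Sobic.003G171950 had 2.64, 2.75 and 9.81 FPKM in stage order, and Sobic.003G172800 had 88.5, 68.7 and 36.2. Neither Sobic.003G171950 nor Sobic.003G172800 had its lowest value at the milky stage.

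The remaining 8 of the 12 deepest genes had milky values between 0.0631 and 12.1 FPKM. Sobic.010G177800 went from 26.3 through 3.04 to 32.9 FPKM. For Sobic.002G109400 the values were 18.0, 2.28 and 30.7 FPKM, and for Sobic.010G178000 they were 80.4, 2.74 and 20.3 FPKM. The former ended above booting and the latter well below it. Sobic.001G451500 went from 6.26 through 0.0631 to 4.98 FPKM. Sobic.001G232300 had 12.3, 0.397 and 6.52 FPKM, and Sobic.006G276100 had 6.97, 0.223 and 5.15 FPKM. These last genes were under 1 FPKM at the milky stage only. Sobic.004G149400 had 45.6, 2.88 and 16.9 FPKM. Sobic.009G044600 had 69.9, 12.1 and 59.6 FPKM, the highest milky value of the 12.

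**Figure D3:**
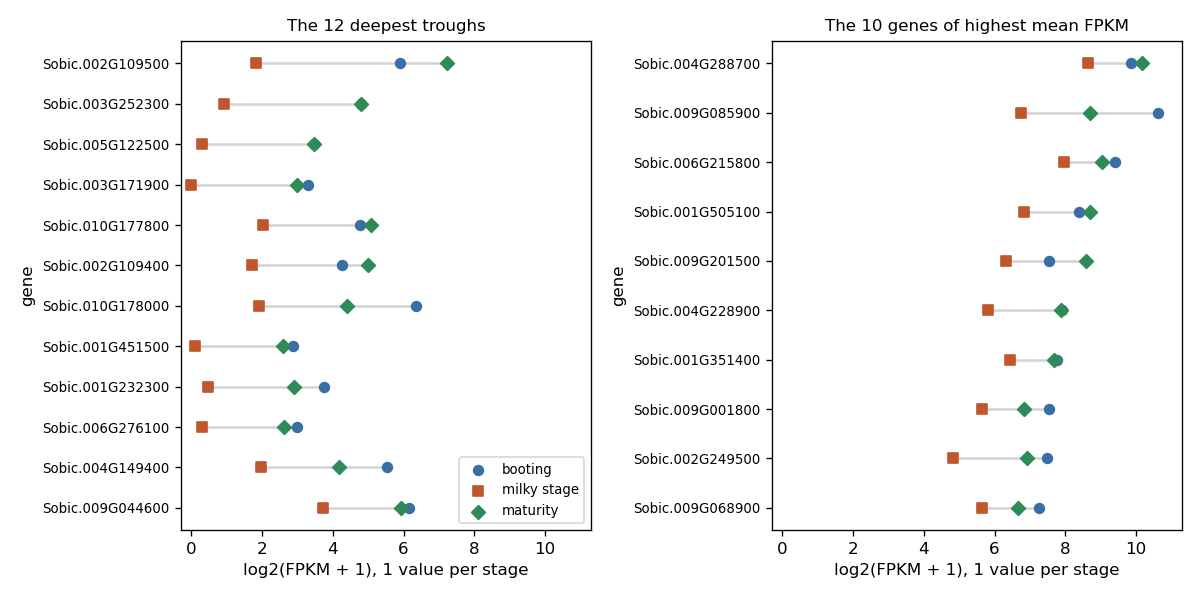
Points give log2(FPKM + 1) at booting (circles), the milky stage (squares) and maturity (diamonds), 1 value per stage, for the 12 deepest troughs on the left and the 10 genes of highest mean FPKM on the right; grey lines join the lowest and highest stage. The square is leftmost in every row, and circles and diamonds nearly coincide in Sobic.003G252300 and Sobic.005G122500.

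The 10 genes of highest mean FPKM had troughs 1.005 to 2.11 deep on the log2 scale. Sobic.004G288700 (chromosome 4, 63023012 to 63027206) went from 931 FPKM down to 402 and up to 1157, with log2 differences of −1.21 and 1.52. Sobic.009G085900 (chromosome 9, 14570382 to 14573259) had the highest booting value, 1564 FPKM, followed by 105 and then 418 FPKM. Its differences were −3.88 and 1.98. These 2 genes together held 26.7% of the summed booting FPKM of the 158, 22.6% of the milky sum and 22.1% of the maturity sum.

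Sobic.006G215800 went from 679 through 249 to 528 FPKM. Sobic.001G505100 had 333, 113 and 416 FPKM in the order of the stages, and Sobic.004G228900 had 240.5, 55.4 and 233 FPKM. All 3 kept more than 50 FPKM in the milky stage. Sobic.001G351400 had 217, 86.0 and 205 FPKM. Sobic.009G001800 had 184, 48.9 and 114 FPKM, and Sobic.002G249500 had 179, 27.2 and 121 FPKM. Sobic.009G068900, with 151, 49.5 and 100.3 FPKM, met the threshold for the rise by a small margin (1.005). Sobic.009G201500 was the one gene of these 10 that ended higher by more than 1 on the log2 scale, with 184, 78.8 and 384 FPKM.

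The 28 genes that stayed lower at maturity had a median log2 difference of −2.94 in the first step and 1.34 in the second. For the 119 that came back near booting the medians were −1.50 and 1.42. The larger fall of the 28 follows from how the class was defined, and their smallest fall was −2.206. The median of the 28 was 36.1 FPKM at booting, 3.03 in the trough and 9.88 FPKM at maturity. Sobic.010G050800 (chromosome 10, 3937160 to 3942754) fell from 72.0 to 1.86 FPKM (−4.68) and reached 5.16 FPKM at maturity (1.11). That was the largest fall of the 158 with the pseudocount of 1. With 0.1 it was Sobic.003G171900 (−6.48, milky value listed at 0) and with 5 Sobic.009G159700 (−3.85) that fell most. Sobic.002G051400 (chromosome 2, 4866565 to 4870490) was alike, with 77.4, 2.37 and 6.33 FPKM. Sobic.009G159700 had 205, 9.55 and 26.7 FPKM, and Sobic.007G003600 had 214, 13.6 and 61.7 FPKM. These genes regained only part of their loss: maturity stood at 7.16% of booting for Sobic.010G050800, 8.18% for Sobic.002G051400, 13.0% for Sobic.009G159700 and 28.8% for Sobic.007G003600. Both genes of the 158 with a locus under 300 bp were in this class. Sobic.001G488000 had 223, 14.4 and 36.2 FPKM over a locus of 256 bp, and Sobic.006G190500 had 39.2, 4.76 and 10.9 FPKM over 199 bp. FPKM of such short loci divides by a small length and is less certain.

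The 11 genes that ended higher at maturity had a median log2 difference of −1.45 and then 2.85. Their large rise also follows from how the class was defined, and the smallest was 2.27. Sobic.002G109500, the deepest gene, was one of the 11, with a much larger fall than the rest. Sobic.007G217300 (chromosome 7, 64546235 to 64558623) had the largest excess, with 10.04 FPKM at booting, 2.21 in the trough and 57.4 FPKM at maturity, which is 571% of booting. It shares its locus with other rows, of which Sobic.007G217100 had 18.2, 26.5 and 34.2 FPKM. Sobic.007G074400 had 9.15, 3.60 and 31.1 FPKM, and Sobic.007G177100 had 11.1, 2.11 and 27.6 FPKM.

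The others of that class were mostly of low or middle level. Sobic.002G173900 went from 7.23 through 1.54 to 17.4 FPKM, and Sobic.002G284600 from 5.42 through 1.35 to 16.4. Sobic.008G081200 had 3.90, 0.798 and 12.3 FPKM. For Sobic.001G314300 the values were 10.6, 3.19 and 25.8 FPKM. The genes Sobic.004G042600 (10.5, 4.09 and 25.3 FPKM) and Sobic.004G122500 (9.15, 3.61 and 24.1 FPKM) had closely similar courses. With Sobic.009G201500, this accounts for all 11.

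At the threshold, the smaller of the 2 differences was close to 1 for the genes just inside and just outside. Sobic.010G015800 had 51.4, 25.2 and 52.6 FPKM, with a fall of −1.0001 that met the rule. Sobic.003G445200 had 9.64, 3.94 and 8.91 FPKM, with a rise of 1.003. Just outside, Sobic.009G208200 had 19.9, 9.38 and 19.7 FPKM, with differences of −1.01 and 0.995. Sobic.006G107400 (56.4, 11.2 and 23.3 FPKM) and Sobic.010G087600 (9.88, 1.84 and 4.63 FPKM) missed on the rise, at 0.992 and 0.986.

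The position of the 158 genes was not used by the rule. All 10 chromosomes held some. As a share of a chromosome's genes at 1 FPKM or more, chromosome 7 had the lowest, 0.787% (8 of 1017), and chromosome 10 the highest, 1.37% (17 of 1243). Chromosome 1 had the most, 23, which was 0.8% of its 2876. A further 2, Sobic.K013000 and Sobic.K033000, lay on sequences not placed on a chromosome. Sobic.K013000 had 18.6, 1.74 and 5.93 FPKM, and Sobic.K033000 had 35.8, 5.46 and 15.8 FPKM. Along the chromosomes, taking the last coordinate in the table as the end, the shares in 5 equal stretches were, in order, 0.766%, 1.2%, 0.575% (1 gene of 174), 1.17% and 1.13%.

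Some of these genes lay close together. Counting only rows with 1 ID ending in 00, in ID order, 32 of the 156 on chromosomes (20.5%) had another within 10 gene positions. In that order 5 pairs were direct neighbours. Rows of other kinds were skipped and can lie in between, as Sobic.009G044501 does between Sobic.009G044400 and Sobic.009G044600. Among the 185 genes with the opposite course the numbers were much the same, 34 (18.4%) and 6 pairs. The limit of 10 positions was chosen after the values were seen. The 32 genes formed 14 groups, 3 of them with 3 or 4 genes. Most of these groups depend on the pseudocount. With 5 in place of 1, Sobic.001G291300 (rise of 0.593) and Sobic.009G001700 (rise of 0.682), for example, no longer met the rule. Only 3 sets of neighbours then remained: Sobic.002G109400 with Sobic.002G109500, Sobic.006G215800 with Sobic.006G216700, and Sobic.010G177800 with Sobic.010G178000 and Sobic.010G178500.

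The largest group spanned 224.5 kb of chromosome 10, from 51567423 to 51791889, with 4 genes. In order, Sobic.010G177800, Sobic.010G178000 and Sobic.010G178500 lay within the first part, and Sobic.010G179800 at the end. Their milky values were 3.04, 2.74, 8.74 and 12.4 FPKM, each below its own booting value of 26.3, 80.4, 29.7 and 30.7 FPKM. At maturity they stood at 32.9, 20.3, 42.4 and 25.9 FPKM. The other rows between them did not share the course as a block. Sobic.010G178200 had 53.5, 41.7 and 22.5 FPKM in stage order, and Sobic.010G179700 had 51.9, 49.6 and 38.8 FPKM. Of the 17 other rows in the interval, 7 reached 1 FPKM, and 3 of those 7 had their lowest value at the milky stage.

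On chromosome 2, Sobic.002G109400 and Sobic.002G109500 were direct neighbours in the table, with no row between them over 37.5 kb, and both were among the 12 deepest. Both also ended above booting. Of the rows on either side, Sobic.002G109600, which follows in the ID order, had 11.9, 9.94 and 12.9 FPKM. A second pair on that chromosome, Sobic.002G112100 (28.4, 10.2 and 31.3 FPKM) and Sobic.002G112300 (5.59, 1.32 and 4.77 FPKM), fell within 18.1 kb.

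A group of 3 spanned 21.4 kb near the start of chromosome 9. Sobic.009G001700 had 24.4, 3.06 and 7.94 FPKM, Sobic.009G001800 had the values given above, and Sobic.009G002100 had 9.69, 3.31 and 8.30 FPKM. Between them, Sobic.009G001900 had 13.3, 10.5 and 8.53 FPKM and Sobic.009G002000 had 18.7, 24.6 and 29.2 FPKM, and neither was lowest at the milky stage. Also on chromosome 9, Sobic.009G044400 (17.6, 1.16 and 4.28 FPKM) and Sobic.009G044600 together spanned 13.6 kb. At maturity the former stood at 24.3% of its booting value and the latter at 85.2%.

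On chromosome 1, Sobic.001G291300 and Sobic.001G291500 had closely matching values, 6.75, 0.262 and 2.94 FPKM against 6.58, 0.409 and 2.81. Each covers a short locus, of 806 and 811 bp. Whether the genes are similar in sequence, and so could share reads, could not be examined without sequences. Sobic.001G291200, just before the first of them, fell from 374 to 39.7 FPKM and had 31.4 at maturity, without a rise. Sobic.001G290200, the third of that group, had 55.0, 20.5 and 61.0 FPKM.

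**Figure D4:**
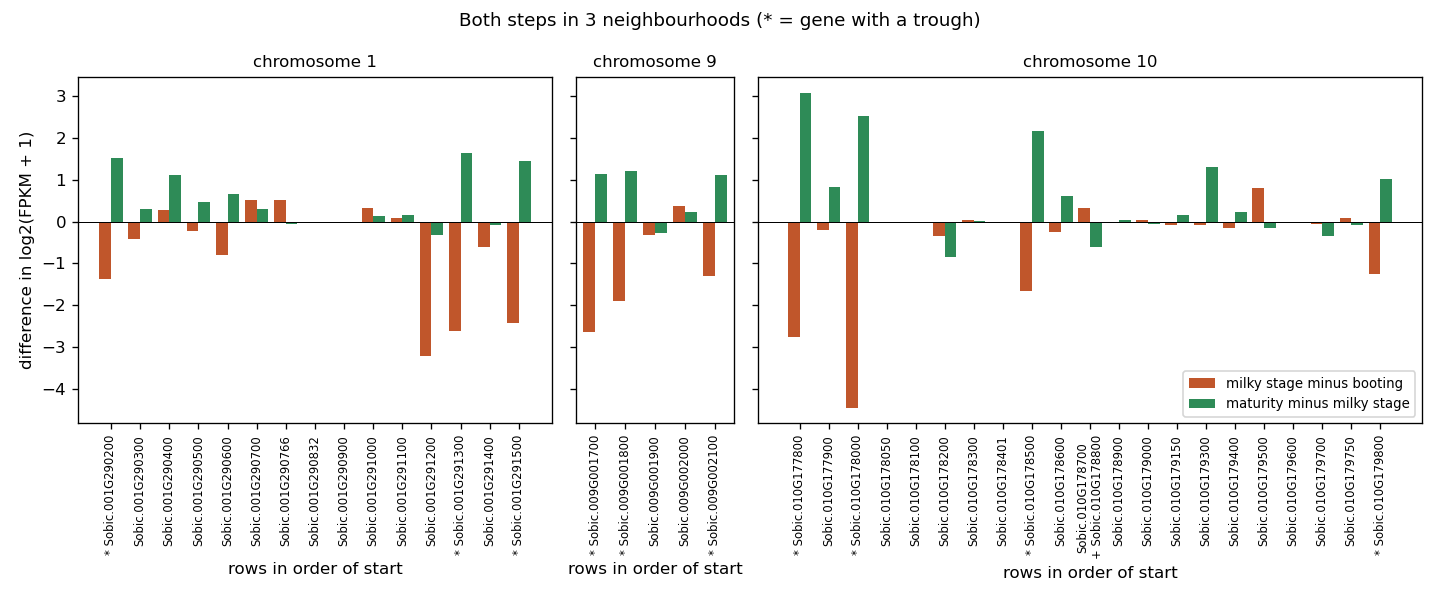
Bars give the difference in log2(FPKM + 1) for both steps in every row of the table across the 3 neighbourhoods with 3 or more genes with a trough (marked *), in order of start. The marked genes have a long downward bar and a long upward bar, while most rows between them have short bars or bars in 1 direction.

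The other groups were pairs. Sobic.008G041300 (6.01, 1.08 and 5.61 FPKM) and Sobic.008G041400 (2.25, 0.607 and 2.74 FPKM) were direct neighbours. So were Sobic.010G104300 (34.3, 12.3 and 38.2 FPKM) and Sobic.010G104400 (2.39, 0.513 and 2.27 FPKM). Within both pairs booting and maturity were close. Sobic.004G148900 had 15.1, 3.23 and 8.45 FPKM and lay near Sobic.004G149400, with no other row at 1 FPKM or more in between. Sobic.003G276000 (6.85, 2.90 and 7.37 FPKM) and Sobic.003G276400 (5.03, 1.65 and 7.48 FPKM) were 4 positions apart. The row sharing a locus with the latter, Sobic.003G276500, had 3.75, 1.14 and 2.33 FPKM, lowest at the milky stage as well.

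Sobic.008G111100 (12.8, 2.65 and 7.34 FPKM) and Sobic.008G111500 (22.4, 3.55 and 8.13 FPKM) regained part of their loss. Sobic.008G104500 had 16.2, 3.35 and 10.9 FPKM, and Sobic.008G105500 had 56.2, 14.9 and 34.1 FPKM, across an interval of 648.5 kb with few expressed rows. The pairs Sobic.004G228100 (3.42, 0.372 and 1.79 FPKM) with Sobic.004G228900, and Sobic.006G215800 with Sobic.006G216700 (16.1, 3.05 and 17.1 FPKM), joined genes of very different level. Over all 14 groups, 43 of the 76 other rows reached 1 FPKM, and 12 of them (27.9%) were lowest at the milky stage by any amount. Of all 18505 rows at 1 FPKM or more, 33.5% were.

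Shared loci were about as frequent as elsewhere. A locus printed identically for another row of the table was found for 23 of the 158 (14.6%), against 15.7% of the 15323 genes. Partial overlap between different loci was not counted. Of the 36 rows sharing those loci, 23 reached 1 FPKM and 1 met the rule's differences itself. That row, Sobic.010G196466, had 15.0, 2.10 and 11.7 FPKM beside 84.3, 18.4 and 59.7 FPKM for Sobic.010G196500. The sources used here do not say how fragments were divided between rows that share a locus.

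Short loci held more of the 158 genes than long ones. The locus is the stretch of genome printed for the row, introns included. Rows that share a locus are printed with the same stretch, so its length can exceed that of the gene. Its median length was 3130 bp for the 158 and 4344 bp for the 15323 genes. The 15323 genes were split into 5 equal bins of length. In the bin with the shortest loci, 103 to 2484 bp, 62 of 3065 genes (2.02%) had a trough, against 0.979%, 0.783%, 0.555% and 0.816% in the bins of increasing length. The shortest bin also had the higher share within each range of mean FPKM that held any. From 1 to 10 FPKM, 1.8% of genes in the shortest bin and 0.93% of the longer ones had a trough. From 10 to 100 FPKM the shares were 2.98% and 0.748%, and at 100 FPKM or more they were 2.0% (6 of 300) and 0.637% (5 of 785). Over all lengths, 1.14%, 1.05% and 1.01% of genes had a trough in those 3 ranges, and 0 of the 748 genes with a mean under 1 FPKM did. The rule needs at least 1 FPKM at both booting and maturity, which leaves almost no room under that mean. Nothing is read from that 0.

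**Figure D5:**
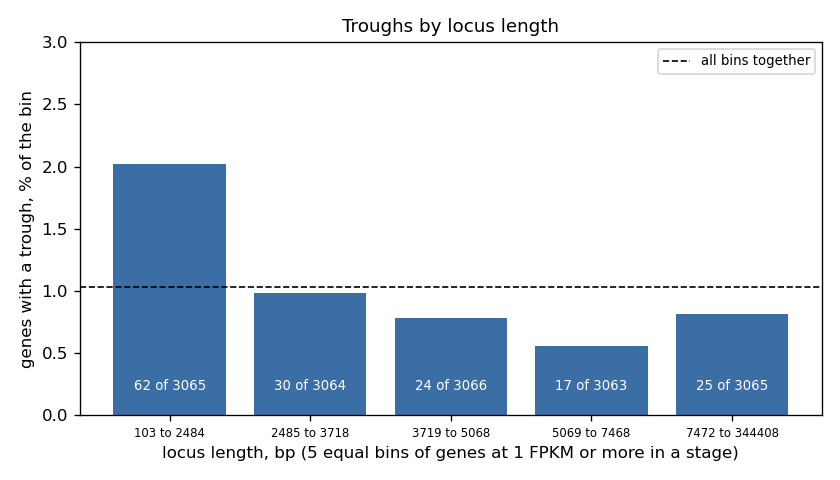
Bars give the percentage of genes with a trough in 5 equal bins of locus length (bp, shortest on the left) among genes at 1 FPKM or more in a stage, with counts inside the bars, and the dashed line is the share over all bins, 1.03%. The shortest bin stands at 2.02%, and each of the others is below 1%.

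Rows outside the rule's ID format also took this course. Another 40 rows met both differences, of which 17 carried several merged IDs, 14 carried none and 9 carried a single ID not ending in 00. As shares of such rows at 1 FPKM or more, these were 1.44%, 1.42% and 0.888%. The deepest was an unannotated row on chromosome 2 from 2801576 to 2802463, which dropped from 32.9 to 0.415 FPKM and came back to 9.69. Another, on chromosome 5 from 55757610 to 55761244, had 6.26, 0.253 and 9.59 FPKM. Of the 40, 3 lay within 10 kb of one of the 158 genes. They were Sobic.010G196466, Sobic.001G481201 (96.4, 35.2 and 75.6 FPKM) beside Sobic.001G481100 (10.8, 1.05 and 3.37 FPKM), and a row merging 3 IDs (43.2, 14.2 and 103 FPKM) beside Sobic.003G234500 (4.95, 1.85 and 8.75 FPKM).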

How the data were processed

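Total RNA (Trizol, modified) went into a stranded library kit, per the labels' protocols. Cuffdiff, HISAT2 2.0.5, Bowtie2 2.2.9 and cutadapt 1.8.1 are listed in the submitters' processing notes, without roles. The deposited values are FPKM, per the file headers, 1 for each stage, made by the authors. The sources used here do not state the genome build, the annotation or how libraries were combined.

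Stage differences were taken in log2(FPKM + 1) with no further scaling or filter, and shares are over genes at 1 FPKM or more in a stage. With 1 value per stage no test was run. The members and lists were chosen with earlier results of these data known. Genes named were the 12 deepest, the 10 of highest mean, the 3 on each side of the threshold, any listed at 0 at the milky stage, and neighbours. All genes higher at maturity, those with the largest falls, the short loci, those off the chromosomes and rows beside named genes were added after their values were seen. None of the 26729 IDs matched the RefSeq gene table (Sorghum_bicolor_NCBIv3), also after conversion to its usual locus-tag form. With no descriptions or sequences at hand, the 28 gene lists fixed by description found 0 rows and give no result, and promoter motifs and protein families were not examined. Python 3.11.15, numpy 2.4.6, pandas 2.3.3 and matplotlib 3.10.9 were used.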

Additional observations from a re-analysis of the deposited data

How the results depend on the processing

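How many genes met the rule depended on the weight of low values and on the threshold. With a pseudocount of 0.1, 469 genes had a trough (85 lower, 328 back near booting and 56 higher at maturity), and these included all 158. With a pseudocount of 5 there were 59 (8, 47 and 4), and with a log2 difference of at least 2 in both steps there were 17 (0, 17 and 0, with the same 2 as limit at maturity). All of the 59 and of the 17 were among the 158, which follows from the settings. Quantile normalization gave 136, of which 134 were among the 158, and scaling to the median ratio gave 142, all among them. With a mean of at least 5 FPKM it was 123, and over all rows with a single ID 167. Of 120 log2 differences of named genes, a pseudocount of 0.1 moved 28 by over 1.5-fold, a pseudocount of 5 moved 63 and quantile normalization moved 0, and none changed sign. Smaller moves still took named genes across the threshold. With quantile normalization, Sobic.004G288700 (fall of −0.923), Sobic.009G201500 (fall of −0.973) and Sobic.009G068900 (rise of 0.996), among others, no longer met the rule.

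No paired analysis was possible because the table holds 1 value per stage, and leaving out a replicate was not run for that reason. Counts per gene list were not recomputed, since no list found a row. The table does not state the depth that sets the counting error of low values.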
